A study of Mus musculus with 12 samples.

Results

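The 37 genes described here encode proteins that work in the lumen or the membrane of the lysosome. They were taken by symbol from a fixed list, and all 37 were found among the 23238 gene symbols of the data set. By role they were 9 proteases, 11 glycosidases and sulfatases, 8 lipid-handling proteins and activators, 7 membrane proteins and 2 parts of the proton pump. RNA was measured in 12 libraries of primary alveolar type II (ATII) cells, the surfactant-producing cells of the lung, sorted as CD74+ EpCAM+ cells from 1 mouse each. The Con and BLM mice were Spc-p300 f/f animals, which carry floxed p300 alleles and are called wild type and negative control in the sample labels, and the KO and KOBLM mice were Spc-p300 d/d animals, labelled p300 knockout. In the KO and KOBLM mice, a tamoxifen-inducible Cre driven by the surfactant protein C (Spc) promoter removes exon 9 of p300, a histone acetyltransferase, in ATII cells. Tamoxifen was given at 10 mg/kg to 8-week-old mice before injury. The labels give that same protocol for all 12 samples, whereas the study describes vehicle or tamoxifen for sorted ATII cells in another assay, so what the Con and BLM mice received is not settled by the sources used here. Con and KO mice received PBS into the trachea, BLM and KOBLM mice received bleomycin (BLM), which breaks DNA and injures the lung, at 4 mg/kg, and each group had 3 libraries. The interval between bleomycin and sorting was not given in the sources used here.

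Lysosomes are acidic organelles in which proteins, glycans and lipids are broken down by hydrolases, after a proton pump, the vacuolar ATPase, has lowered the pH of the lumen. In the alveolus, ATII cells store surfactant in lamellar bodies, which are lysosome-related organelles, and alveolar macrophages take up and degrade used surfactant and cell debris. Many lysosomal genes are known to be driven together by the transcription factors TFEB, TFE3 and MITF, which bind an E-box, CACGTG, and favour its extended form, TCACGTGA, near the start site.

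This E-box was common just before the members. RefSeq promoter windows on GRCm38.p6, from 250 bases before to 50 after a start, were at hand for 33 of the 37 members. Asah1, Ctsb, Ctsh and Npc1 had none. CACGTG, which reads the same on both strands, lay in the windows of 13 of the 33 genes (39.4%) against 8.09% of the 27025 genes in the table. The extended form, which contains the shorter one and is also its own reverse complement, lay in 6 of the 33 (18.2%; Atp6v0d1, Cd164, Ctsa, Ctsd, Gla and Mcoln1) against 1.12% of all genes. Each match is a description of the letters and not of binding. The 120 bases before the start are shown for the 4 genes that cover the range seen, from 4 copies in Lamp1 to 1 copy in Cd164, the member with the lowest fold change in BLM. They lie at chr8:13159041-13159160 (plus strand) for Lamp1, chr8:3500399-3500518 (plus strand) for Mcoln1, chr7:142387828-142387947 (minus strand) for Ctsd and chr10:41519380-41519499 (plus strand) for Cd164. Capitals mark CACGTG, and each stretch is written 5′ to 3′ on the strand of the gene.
Lamp1: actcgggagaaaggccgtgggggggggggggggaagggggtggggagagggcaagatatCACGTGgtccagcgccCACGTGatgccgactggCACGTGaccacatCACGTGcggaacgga
Mcoln1: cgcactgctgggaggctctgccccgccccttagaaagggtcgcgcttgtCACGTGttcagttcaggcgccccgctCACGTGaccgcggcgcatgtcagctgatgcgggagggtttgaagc
Ctsd: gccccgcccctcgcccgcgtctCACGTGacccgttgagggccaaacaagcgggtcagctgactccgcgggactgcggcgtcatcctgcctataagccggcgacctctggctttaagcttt
Cd164: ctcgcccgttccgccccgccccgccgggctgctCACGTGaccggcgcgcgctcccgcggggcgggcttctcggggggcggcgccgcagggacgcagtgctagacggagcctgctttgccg
The nearest copy lay 15 bases before the start in Lamp1, 45 in Mcoln1, 98 in Ctsd and 87 in Cd164. Of the 9 members called in BLM against Con, at the threshold given with that comparison, 3 held CACGTG (33.3%; Cd164, Ctsa and Ctsl), and of the 24 others with a window 10 did (41.7%).

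Each library held between 7005005 and 11153154 counts, and 3 counts, used as the detection floor, were worth between 0.269 and 0.428 CPM (reads per gene scaled to a common library total). Floors of this kind cover counting error only. The library labelled BLM 3 stood apart from the other 11: its 17 macrophage markers summed to 1230 CPM, against 10963 to 42411 CPM elsewhere, and its 10 pluripotency markers summed to 2311 CPM, against 0.6 to 18 CPM. In rank correlation across genes it reached 0.529 and 0.535 with the other BLM libraries, which gave 0.898 with each other. Values without it are therefore given for the members' medians, counts and fold changes in the comparisons that use it, and for the other lysosomal gene lists. The sort was for ATII cells, yet macrophage transcripts were abundant: Chil3, Mrc1 and Ctss were above Sftpc, the defining ATII transcript, in 12 of the 12 libraries and Lyz2 in 11. The 12 ATII markers had sums of 643 to 3644 CPM, of which Cd74, a sort marker that encodes the invariant chain of MHC class II, held 460 to 2247. The other 11 markers summed to 674 to 2069 CPM in Con and 456 to 889 in BLM, with the highest BLM value in BLM 3, and ranged between 182 and 770 (KO) and between 186 and 666 (KOBLM). In BLM 3 most of that sum came from Etv5 (397 CPM) and Epcam (329 CPM). Sftpd, Abca3, Lamp3 and Lpcat1 were at 0 in that library, Sftpb was at 3.59 CPM and Sftpc at 73.7. Sftpc ran from 0.55 CPM in KOBLM 3 to 612 in Con 2, and Lpcat1 was at 0 or near it throughout. Since reads come from the 3′ end of the transcript, outside the floxed exon, the Ep300 counts do not test the deletion. Ep300 stood between 42.6 CPM (BLM 3) and 169 CPM (a library labelled KOBLM), and between 103 and 154 CPM in the 3 libraries labelled KO.

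**Figure D1:**
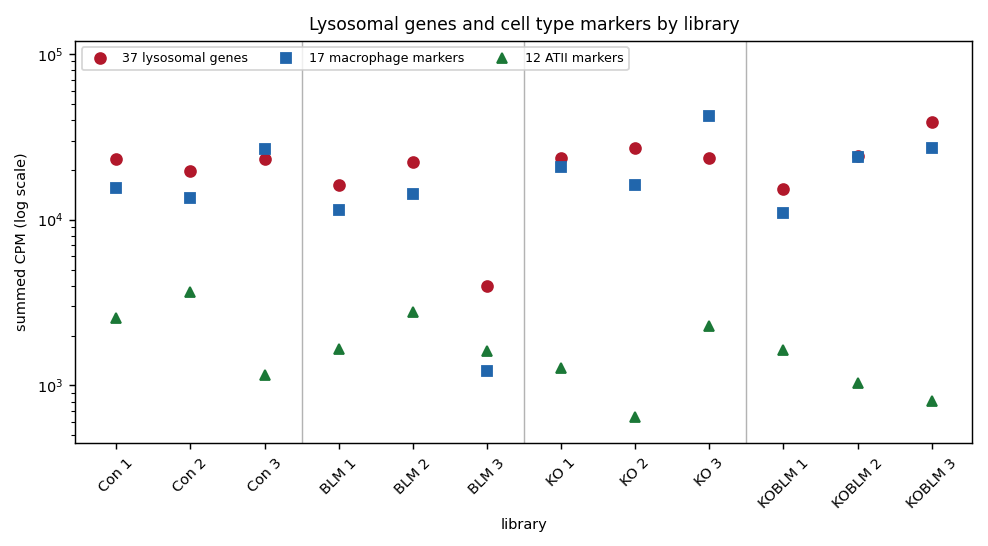
Summed CPM (log axis) of the 37 lysosomal genes, the 17 macrophage markers and the 12 ATII markers in each of the 12 libraries, with vertical lines between groups. The lysosomal sum is 3966 CPM in BLM 3 and 15311 to 38957 CPM in the other 11 libraries, where the macrophage sum also lies far above the ATII sum.

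The 37 genes held 1.53% to 3.90% of all counts in 11 libraries and 0.397% in BLM 3. Their summed level was 21957 ± 2105 CPM (SD, n = 3) in Con, 14137 ± 9355 in BLM, 24675 ± 2187 in KO and 26203 ± 11932 in KOBLM. The BLM libraries stood at 16073, 22374 and, in BLM 3, 3966 CPM. BLM 3 had the lowest level, ties included, for 33 of the 37 members, and 10 members had no count there (Asah1, Gaa, Glb1, Gusb, Ids, Lgmn, Lipa, Naglu, Neu1 and Sgsh). It also had the fewest genes with a count, 6847 against 8790 to 13838 in the other 11 libraries. KOBLM 3 had the highest level for 11 members, and KO 2 and KOBLM 2 had it for 6 each. In bulk RNA of this kind, fewer cells of a type and less RNA per cell cannot be told apart.

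Levels between genes are compared here as TMM CPM, which is CPM after the TMM scaling of edgeR, without length correction, because the kit reads each transcript once, near its 3′ end. Psap was the most abundant member, with a mean of 5079 TMM CPM over the 12 libraries. It encodes prosaposin, the precursor of the saposins that help hydrolases reach their lipid substrates. Ctsd, an aspartic protease, followed with 3050, Laptm5, a lysosomal membrane protein of blood cells, with 2039, Ctsb, a cysteine protease, with 1211 and Lamp1, a main membrane glycoprotein, with 1149. Those 5 genes held between 47.1% and 68.2% of the members' counts in a library, and Psap alone held 13.4% to 33.7%. At the other end, Sgsh (12.4), Manba (23.7), Glb1 (32.9), Gaa (36.6), Mcoln1 (36.7) and Naglu (38.1) had the lowest means. Sgsh had no count in Con 3, BLM 3 and KOBLM 2 and was at 0.1 TMM CPM in Con 1, so that its fold changes depend on the fit.

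**Figure D2:**
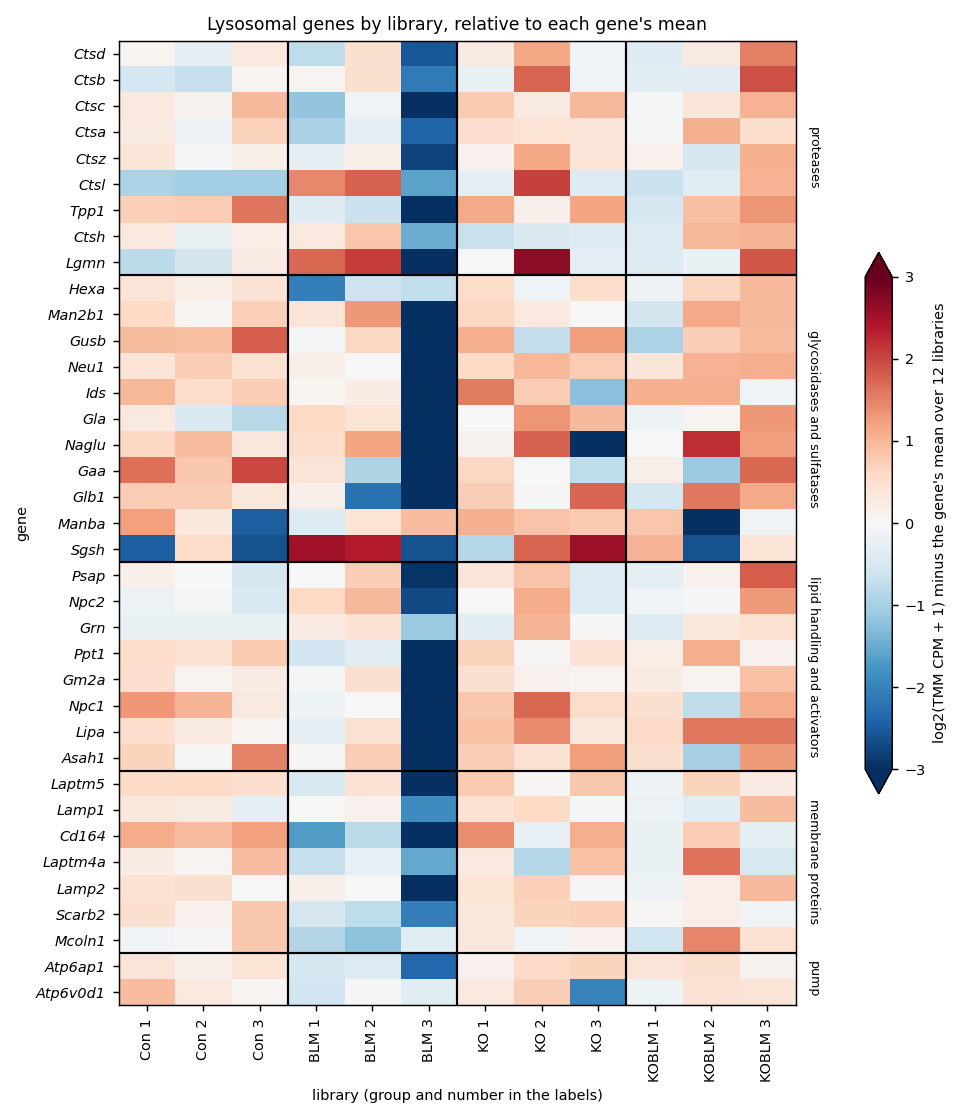
Level of each of the 37 members in each library, as log2(TMM CPM + 1) minus the mean of that gene over the 12 libraries, with colours saturating at -3 and 3. Rows are grouped by role and ordered by mean level, and BLM 3 is low for nearly every member, while Ctsl and Lgmn are high in BLM 1, BLM 2, KO 2 and KOBLM 3.

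The levels of the most abundant members overlapped between groups. Psap was at 4537, 4123 and 2891 TMM CPM in the Con libraries, 4070, 6795 and 532 in BLM, 5336, 7415 and 3066 in KO and 3382, 4454 and 14352 in KOBLM. Ctsd was at 2664, 2103 and 3091 in Con, 1499, 3506 and 430 in BLM, 3047, 5694 and 2364 in KO and 1919, 3051 and 7235 in KOBLM. Ctsb was at 651, 583 and 990 in Con, 988, 1309 and 215 in BLM, 800, 3118 and 874 in KO and 753, 748 and 3503 in KOBLM. In each of these genes the groups overlapped, and KO 2 and KOBLM 3 were the highest libraries. Lamp1 was at 1318, 1267 and 864 in Con, 1059, 1157 and 282 in BLM, 1449, 1601 and 1018 in KO and 927, 833 and 2011 in KOBLM, again with overlap. Laptm5 was the exception in BLM: it was at 2480, 2519 and 2341 in Con and at 1218, 2233 and 101 in BLM, below every Con library, with 2846, 1710 and 2917 in KO and 1497, 2637 and 1973 in KOBLM. Its log2 difference of BLM from Con, -1.05 ± 0.71 (SE), did not pass the test (unadjusted p = 0.162, edgeR), and was -0.50 ± 0.39 without BLM 3.

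BLM was compared with Con to ask what bleomycin did in mice without the p300 deletion. By the threshold of the study, a gene was called where its levels differed by more than 1.5-fold with an unadjusted p below 0.05, here in the quasi-likelihood test of edgeR over 13054 genes. Of the 37 members, 8 were called lower in BLM (21.6%), against 2.08% of all tested genes: the proteases Ctsa, Ctsc and Tpp1, the glycosidase Hexa, the thioesterase Ppt1, the membrane proteins Scarb2 and Cd164, and Atp6ap1 of the proton pump. Only Ctsl was called higher, 1 of 37, where 2.19% of all genes were. No call held after Benjamini-Hochberg adjustment in edgeR, for which the smallest adjusted p of a member was 0.995, and 0 of the 13054 genes passed an adjusted p of 0.05, although 558 had an unadjusted p below 0.05. With DESeq2, 114 genes passed the adjusted threshold, and Cd164 was the 1 member among them (log2 fold change -2.70 ± 0.66, adjusted p = 0.00697 by DESeq2). The median log2 fold change was -0.78 over the members and -0.08 over all tested genes, with 28 members below 0 and 9 above. Without BLM 3 these medians were -0.43 and 0.05, with 26 members below 0, and without BLM 2 they were -1.39 and -0.26. In 18 members (48.6%) the 3 BLM libraries all lay below the 3 Con libraries, against 10.2% of all genes, and no member lay wholly above, against 5.81%.

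Cd164, which encodes a sialomucin of endosomes and lysosomes also called endolyn, showed the lowest fold change. It was at 1386, 1209 and 1497 TMM CPM in Con and at 199, 371 and 61.1 in BLM, so the groups were far apart. The Con mean was 6.49 times the BLM mean, and the log2 fold change was -2.70 ± 0.64 (SE; unadjusted p = 0.000836, edgeR). Without BLM 3 it was -2.26 ± 0.53. Scarb2 encodes LIMP-2, the receptor that carries glucocerebrosidase to the lysosome, and was at 198, 154 and 250 in Con and 99.8, 82.9 and 33.4 in BLM (log2 fold change -1.48 ± 0.54). Atp6ap1, an accessory subunit of the vacuolar ATPase, was at 461, 393 and 472 in Con and 246, 263 and 67.5 in BLM (-1.20 ± 0.51). For both genes, too, all BLM libraries were below all Con libraries. Without BLM 3, Scarb2 gave -1.14 ± 0.39 and Atp6ap1 -0.80 ± 0.34.

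Among the proteases, Tpp1, which removes tripeptides from protein ends, was at 374, 388 and 697 TMM CPM in Con and at 174, 146 and 2.0 in BLM, with a log2 fold change of -2.18 ± 0.99. Ctsc, the dipeptidyl peptidase that activates granule serine proteases, was at 603, 527 and 970 in Con and 214, 455 and 43.8 in BLM (-1.56 ± 0.66). Ctsa, a carboxypeptidase that also protects beta-galactosidase and neuraminidase, was at 569, 423 and 758 in Con and 238, 386 and 89.1 in BLM (-1.30 ± 0.53). In these 3 genes the groups did not overlap, and BLM 2 came nearest to Con for Ctsc and Ctsa. Hexa, the alpha subunit of beta-hexosaminidase, was at 307, 264 and 314 in Con and 55.9, 150 and 138 in BLM (-1.36 ± 0.52), and here BLM 1, not BLM 3, was the lowest library. Ppt1, which removes palmitate from proteins, was at 463, 431 and 544 in Con and 211, 246 and 27.5 in BLM (-1.57 ± 0.65). Without BLM 3 the fold changes were -1.60 for Tpp1, -1.06 for Ctsc, -0.90 for Ctsa, -1.52 for Hexa and -1.07 for Ppt1.

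Ctsl, the cysteine protease cathepsin L, went the other way in 2 of the 3 libraries. It was at 170, 158 and 161 TMM CPM in Con and at 887, 1121 and 107 in BLM, so that BLM 1 and BLM 2 were far above Con and BLM 3 was below it. The log2 fold change was 2.11 ± 0.84 (unadjusted p = 0.0237, edgeR), and 2.62 ± 0.66 without BLM 3. Lgmn, the asparaginyl endopeptidase legumain, had a like pattern with 46.5, 55.6 and 96.3 in Con and 269, 347 and 0 in BLM (1.63 ± 1.5, not called). Without BLM 3 it was called as well (2.22 ± 0.83, unadjusted p = 0.0176, edgeR).

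Ctsl and Lgmn were highest in BLM 1, BLM 2, KO 2 and KOBLM 3, libraries in which the macrophage marker C1qa stood at 950, 956, 568 and 363 CPM, against 0 to 209 CPM in the other 8. Of the whole list of 17 macrophage markers, 3 were called higher in BLM than in Con (C1qa, C1qb and C1qc) and 2 lower (Mrc1 and Itgax), and the summed level ran from 13554 to 26823 CPM in Con and from 1230 to 14241 in BLM, beside 16272 to 42411 (KO) and 10963 to 27147 (KOBLM). In BLM 3, Marco, Adgre1, Csf1r, Fcgr1, Siglecf and Mertk were at 0. Cd164 was at 1078 to 1679 TMM CPM in the 6 libraries with Siglecf, a marker of resident alveolar macrophages, at 175 to 400 CPM (the Con libraries, KO 1, KO 3 and KOBLM 2) and was at most 557 in the 6 with Siglecf at 0 to 32.3 CPM. Of the 17 macrophage markers, Mrc1 and Itgax divided the libraries in the same way, and the others did not. Marco was highest in KOBLM 3 and KO 2 (1447 and 1422 CPM), where Cd164 was at 531 and 534 TMM CPM. Lyz2 and Cd68 were highest in KOBLM 3 (3314 and 1691 CPM). Of the 12 ATII markers, 11 passed the filter, and Sftpc and Sftpa1 were called lower in BLM. Of the shorter lists, Ptprc (pan-leukocyte), Cd8a (T cells) and Cd79a and Ms4a1 (B cells) were also called lower in BLM than in Con. Col1a2 (fibroblasts) and Nanog, Tdgf1 and Tet1 (pluripotency) were called higher. Without BLM 3, Ptprc was still called lower, while Cd52 of the same list was called higher. Col1a2, Dcn (fibroblasts) and Tet1 were called higher, and of the ATII markers Napsa was called higher and Sftpc and Sftpa1 lower. In that setting Cd8a, Cd79a, Ms4a1, Nanog and Tdgf1 were not called, and 5 macrophage markers were called higher and 3 lower. The part of these markers in the lysosomal results was not tested.

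Without BLM 3, all 9 calls of BLM against Con were kept and Lgmn was added, which made 10 (8 lower and 2 higher, at 5.45% of all genes called in either direction). The same 18 members then lay below Con without overlap, where 12.7% of all genes did, and 7 lay above (Ctsh, Ctsl, Gla, Grn, Lgmn, Npc2 and Sgsh), where 19.0% did. Without Con 3, in contrast, only Cd164 and Hexa were still called, and the difference between the medians of the members and of all genes was -0.78, against -0.70 with all libraries.

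**Figure D3:**
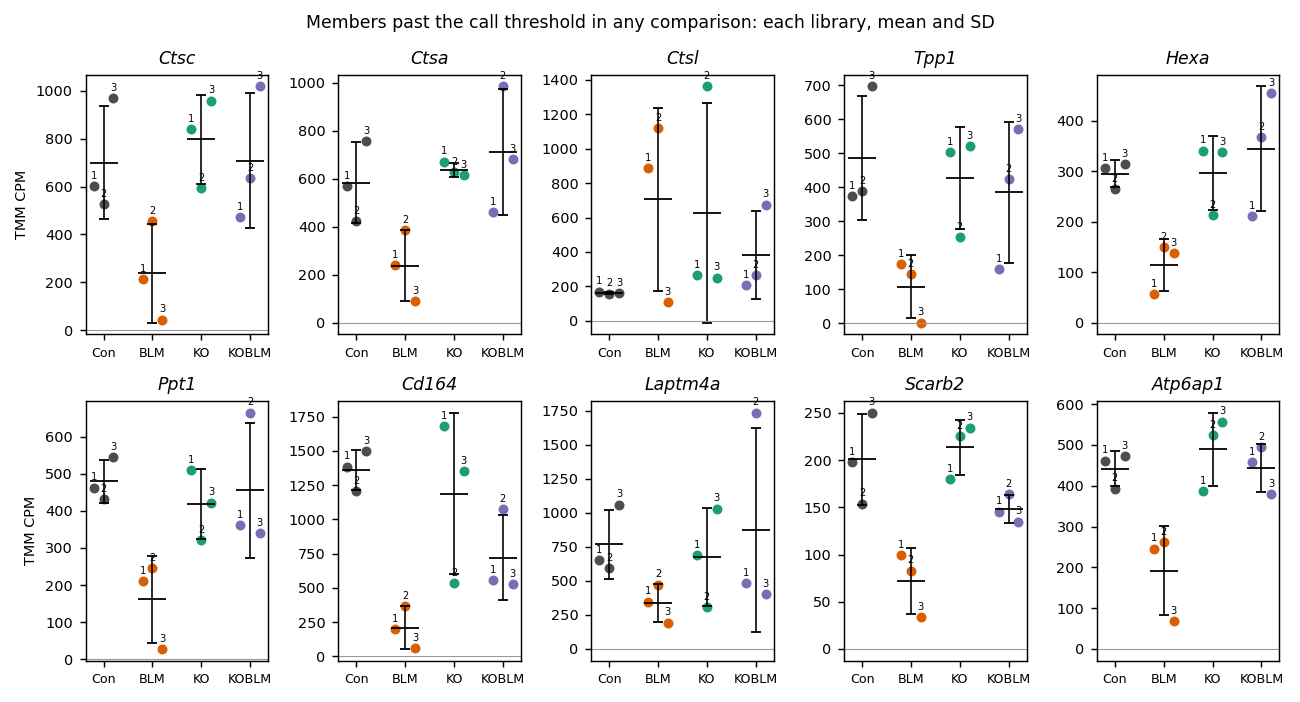
TMM CPM in each library (dots, numbered as in the labels) with the group mean and SD (bars, n = 3) for the 10 members called in any comparison, drawn on linear axes. In 9 panels every BLM library lies below every Con library, while for Ctsl BLM 1, BLM 2 and KO 2 lie far above Con, and for Laptm4a KOBLM 2 is the highest point at 1735.

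The remaining members are given by their fold changes in BLM against Con, and none of them was called. Among the 11 glycosidases and sulfatases, 8 had a fold change below 0, and besides Hexa the groups did not overlap for Gaa (the acid alpha-glucosidase, log2 fold change -2.32 ± 1.51), Glb1 (-1.85 ± 1.49), Gusb (-1.55 ± 1.35), Ids (-1.22 ± 1.34) and Neu1 (-1.06 ± 1.24). Man2b1 (-0.15), Naglu (-0.34), Gla (0.21) and Manba (0.08) lay nearer to 0, and Sgsh, at the floor in 2 Con libraries, gave 3.0 ± 2.67. Of the lipid-handling genes not called, Npc1, which exports cholesterol from the lysosome, did not overlap (-1.57 ± 1.02), while its soluble partner Npc2 (0.51 ± 0.72), Grn (0.21 ± 0.50), Asah1 (-1.02 ± 1.33) and Gm2a (-0.58 ± 0.66) overlapped. All 7 membrane genes and both pump genes had fold changes below 0, the uncalled ones from -1.19 ± 0.63 for Laptm4a and -1.13 ± 0.90 for Mcoln1, a calcium channel, through Atp6v0d1 (-0.78) and Lamp2 (-0.76) to Lamp1 (-0.47 ± 0.54). Of the 9 proteases, Ctsz, a carboxypeptidase, was at -0.70 ± 0.64, and Ctsd (-0.53), Ctsb (0.18) and Ctsh (0.07) also missed the threshold. Without BLM 3, the fold changes were -0.05 for Lamp1, -0.07 for Ctsd, -0.06 for Gm2a, -0.22 for Ctsz, -0.25 for Lamp2 and -0.16 for Lipa. Those of Neu1 (-0.47), Ids (-0.63), Gusb (-0.96), Asah1 (-0.43) and Npc1 (-0.99) also came nearer to 0. Psap (0.50), Ctsb (0.63), Npc2 (1.03), Grn (0.56), Gla (0.77), Man2b1 (0.43), Naglu (0.25) and Ctsh (0.49) were then above 0, and Manba was at -0.30. Gaa (-1.73), Glb1 (-1.26), Mcoln1 (-1.41), Laptm4a (-0.91), Atp6v0d1 (-0.76) and Sgsh (3.58) moved by less than 1.5 times on the log2 scale.

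KOBLM was compared with BLM to ask what changed under bleomycin in the libraries labelled p300 knockout. This comparison shares the BLM libraries with the one above, so a low BLM value enters both. Of the 37 members, 7 were called higher in KOBLM (18.9%), against 1.39% of all genes: Ctsa, Ctsc, Hexa, Ppt1, Laptm4a, Cd164 and Atp6ap1. None was called lower, where 1.78% of all genes were. The adjusted p was 1 for every member in edgeR, 413 genes had an unadjusted p below 0.05, none of the 13054 had an adjusted p below 0.05, and DESeq2 gave 78 such genes and no member. The median log2 fold change was 1.0 over the members against 0.10 over all tested genes, with 33 members above 0 and 4 below (Ctsl, Lgmn, Manba and Sgsh). The member median was 0.54 without BLM 3 and 0.47 without KOBLM 3, with 30 members above 0 in each, beside -0.06 and -0.05 over all genes. In 9 members (24.3%) all KOBLM libraries were above all BLM libraries, against 6.14% of all genes, and in none were they all below, against 4.65%.

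For the called members the KOBLM values stand beside the BLM and Con values given above. Cd164 was at 557, 1078 and 531 TMM CPM in KOBLM (log2 fold change against BLM 1.78 ± 0.62), all above BLM and all below the lowest Con library. Ctsa was at 462, 985 and 683 (1.58 ± 0.54), Ctsc at 472, 634 and 1019 (1.58 ± 0.66) and Hexa at 211, 368 and 455 (1.59 ± 0.52). All 3 of these lay above BLM without overlap, and each overlapped Con. Ppt1 was at 362, 665 and 340 (1.5 ± 0.64) and Atp6ap1 at 457, 494 and 380 (1.21 ± 0.51), again above each BLM library. Laptm4a, a membrane protein of late endosomes and lysosomes, was called on a wider spread: it was at 347, 472 and 194 in BLM and 484, 1735 and 403 in KOBLM (1.37 ± 0.63), beside 651, 594 and 1060 in Con and 687, 308 and 1031 in KO. Its groups overlapped, and it was not called without KOBLM 2.

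Tpp1 and Scarb2, called lower in BLM than in Con, missed the threshold against BLM. Tpp1 was at 160, 424 and 570 TMM CPM in KOBLM (1.84 ± 0.98, unadjusted p = 0.0791 by edgeR), and its lowest library lay within the range of BLM. Scarb2 was at 145, 164 and 135 (1.04 ± 0.53, unadjusted p = 0.0708 by edgeR), above each BLM library. Lipa, the acid lipase that hydrolyses cholesteryl esters and triglycerides, and Neu1, a sialidase, also lay above BLM without overlap and were not called. Lipa was at 131, 223 and 0 in BLM and 239, 488 and 482 in KOBLM, beside 230, 195 and 169 in Con and 298, 430 and 203 in KO, with a log2 fold change of 1.78 ± 1.30 against BLM. Ctsl was at 209, 265 and 675 in KOBLM, between BLM 3 and the other 2 BLM libraries (-0.88 ± 0.81).

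Without BLM 3, 9 members were called in KOBLM against BLM, 8 higher and Ctsl lower (-1.39 ± 0.65), at 3.34% of all genes called in either direction. Lipa (1.19 ± 0.46) and Tpp1 (1.27 ± 0.53) were added and Laptm4a was lost. The calls kept had smaller fold changes, except Hexa (1.74): Cd164 gave 1.34, Ctsa 1.19, Ctsc 1.08, Ppt1 1.0 and Atp6ap1 0.80. In that setting 10 members were above BLM without overlap, where 7.82% of all genes were, and 2 were below (Ctsl and Sgsh), where 15.7% were. Without KOBLM 2, 3 calls remained (Ctsa, Ctsc and Hexa). With all libraries, Lyz2 and Itgax, 2 of the 17 macrophage markers, were called higher in KOBLM than in BLM and none lower. Ptprc and Cd8a were called higher as well, Pou5f1, Nanog, Tdgf1 and Tet1 (pluripotency) lower, and no ATII marker was called. Without BLM 3, Lyz2, Itgax and Ptprc were still called higher, and Cd74 of the ATII list was called lower. No T cell or pluripotency marker was called in that setting. The part of these markers in the result was not tested.

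**Figure D4:**
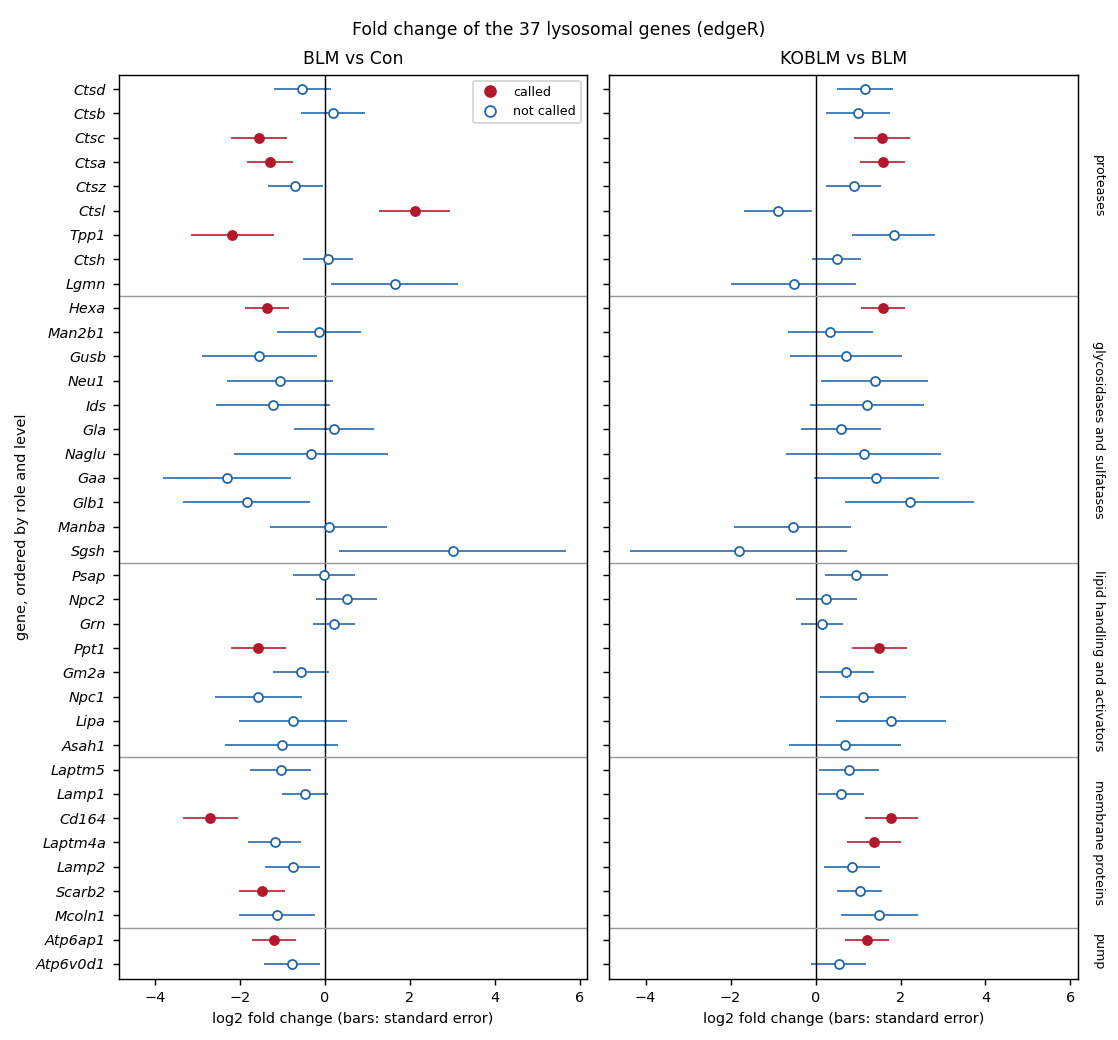
Log2 fold change of the 37 members for BLM against Con (left) and KOBLM against BLM (right), with standard errors of the edgeR fit as bars and filled red points for called genes. Most members lie left of 0 on the left and right of 0 on the right, and both panels use the same 3 BLM libraries.

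KO was compared with Con to ask what the deletion did without bleomycin. Ctsl alone was called higher, 1 of 37 against 0.536% of all genes, and none was called lower, against 0.904%. It was at 266, 1363 and 251 TMM CPM in KO, all above the Con libraries (log2 fold change 1.94 ± 0.83, unadjusted p = 0.0342, adjusted p = 1 by edgeR), and KO 2 decided the call: without that library the difference was 0.70 and the unadjusted p 0.387 by edgeR. The call was also lost without any 1 of the Con libraries. Without BLM 3 in the model, Lgmn was called beside it (1.76 ± 0.77). With all libraries, C1qa, 1 of the 17 macrophage markers, was called higher in KO too, and no ATII marker was called. Without BLM 3, C1qb, C1qc and Cd52 (pan-leukocyte) were called higher as well. The part of these markers in this result was not tested. Over all genes, 188 had an unadjusted p below 0.05 and none passed after adjustment in edgeR, and 80 did in DESeq2, with no member among them. The median log2 fold change was 0.13 over the members and -0.09 over all tested genes. All KO libraries lay above all Con libraries for 1 member, Ctsl, against 3.26% of all genes, and below for 2 members, against 5.82%. Those were Gaa, at 74.3, 41.1 and 95 in Con and 36.0, 22.7 and 13.2 in KO, and Ctsh, a protease that processes surfactant protein precursors in ATII cells. Ctsh was at 327, 229 and 306 in Con and 168, 197 and 205 in KO, a log2 difference of -0.60 ± 0.58 that did not pass the test.

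Of the members called in the BLM comparisons, several were low in KO 2. Cd164 was at 1679, 534 and 1355 TMM CPM in KO, Tpp1 at 504, 254 and 521, Hexa at 341, 212 and 337 and Ppt1 at 511, 321 and 422. In each of these genes KO 2 was the lowest KO library and lay below every Con library. KO 1 and KO 3 were within the range of Con for Tpp1 and above it for Hexa. Ctsa (671, 627 and 615), Ctsc (842, 595 and 960), Scarb2 (180, 226 and 235) and Atp6ap1 (388, 524 and 557) were within the range of Con or above it in KO 2.

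Bleomycin in the libraries labelled knockout moved no member past the threshold. KOBLM against KO gave 0 calls in either direction among the 37, where 1.16% of all genes were called higher and 0.529% lower. By edgeR 221 genes had an unadjusted p below 0.05 and none an adjusted p below 0.05, and DESeq2 gave 57 genes and no member by that rule. The median log2 fold change of the members was 0.00 (18 above 0 and 19 below) beside 0.08 for all genes. Without KOBLM 3 the member median was -0.41, and without KOBLM 1 it was 0.21. Scarb2 was the 1 member with all KOBLM libraries below all KO libraries (-0.53 ± 0.53), against 3.02% of all genes, and no member lay wholly above, against 3.85%. Ctsh had the highest fold change, at 200, 537 and 540 TMM CPM in KOBLM and 168, 197 and 205 in KO, beside 329, 478 and 95.4 in BLM (KOBLM against KO 1.17 ± 0.59, unadjusted p = 0.0669 by edgeR). Without BLM 3 in the model, or without KOBLM 1, Ctsh was called and was the 1 member called.

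Whether bleomycin acted differently in the labelled genotypes was tested by the interaction, the log2 fold change of KOBLM over KO minus that of BLM over Con. It was called for 3 of 37 members (8.1%), against 2.82% of all genes. Cd164 gave 1.98 ± 0.86 (unadjusted p = 0.0368), Hexa gave 1.58 ± 0.72 (unadjusted p = 0.0456) and Ctsl gave -2.82 ± 1.16 (unadjusted p = 0.0281), each with an adjusted p of 1 by edgeR. Cd164 differed by -2.70 between BLM and Con and by -0.72 ± 0.61 between KOBLM and KO, Hexa by -1.36 and 0.22 ± 0.51, and Ctsl by 2.11 and -0.71 ± 0.81. C1qa, C1qb, C1qc and Itgax of the macrophage list were called in the interaction as well, the first 3 lower and Itgax higher, as were Ptprc, Cd8a and Kdr (endothelial), all higher, and their part was not tested. The median interaction was 0.95 over the members and 0.23 over all genes, with 29 members above 0. Without BLM 3 these medians were 0.54 and 0.06, with 25 members above 0, and the member median was 1.46 without BLM 2. All 3 calls were lost without KO 2, without BLM 1 and without KOBLM 2, and 5 members were called without BLM 3 (Cd164, Ctsl, Hexa, Lgmn and Ppt1).

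Other genes of the lysosome were described from 5 further lists, in which KOBLM against KO gave no call. Their counts stand beside the shares of all genes given above, 2.08% lower and 2.19% higher in BLM against Con and 1.39% higher in KOBLM against BLM. Of the 33 other lysosomal enzymes found in the data, 2 were called lower in BLM than in Con: Pla2g15, a phospholipase of alveolar macrophage lysosomes, at 591, 535 and 485 TMM CPM in Con and 47.0, 77.9 and 0 in BLM (-3.69 ± 1.33), and Pld3, a nuclease (-1.29 ± 0.59). Pld3 (1.30 ± 0.59) and Dnase2a, the acid DNase (1.45 ± 0.67), were called higher in KOBLM than in BLM. The median of this list was -0.59 in BLM against Con and 0.85 in KOBLM against BLM, and -0.11 and 0.41 without BLM 3. In that setting Pla2g15 was called in both (-3.10 ± 0.55 and 1.88 ± 0.52), while Pld3 and Dnase2a were not called. The list then gave 3 higher and 2 lower calls in BLM against Con and 2 higher in KOBLM against BLM. Of all genes, 5.45% and 3.34% were called there in either direction. In KO against Con, 2 genes of the list were called higher without BLM 3. Of 19 genes that sort proteins to the lysosome, Sort1 and Nagpa were called lower in BLM (-2.66 ± 0.50 and -2.04 ± 0.66), higher in KOBLM than in BLM (2.0 ± 0.49 and 1.77 ± 0.66) and in the interaction (2.16 ± 0.67 and 2.34 ± 0.91). Sort1, the sortilin receptor, was at 496, 401 and 569 in Con, 51.3, 111 and 70.3 in BLM, 507, 385 and 424 in KO and 193, 406 and 330 in KOBLM. Its BLM libraries were thus all below every other library, and BLM 3 was not the lowest. The median of the sorting list was -0.66 in BLM against Con and 0.77 in KOBLM against BLM, and -0.24 and 0.67 without BLM 3, where Sort1 (-2.59 ± 0.47 and 1.94 ± 0.45) and Nagpa (-1.64 ± 0.57 and 1.37 ± 0.56) were still called. Vps26a was then also called lower in BLM than in Con, and Vps41 higher in KOBLM than in BLM. In the interaction, 3 genes of the list were called higher without BLM 3.

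Of 17 other subunits of the proton pump, Atp6v0d2, the d subunit of macrophages and osteoclasts, and Atp6v1b2 were called lower in BLM (-2.30 ± 0.81 and -1.33 ± 0.55). Atp6v0d2 was at 1035, 819 and 912 TMM CPM in Con and 121, 412 and 28.1 in BLM, and was called higher in KOBLM than in BLM (2.15 ± 0.80). The list as a whole had a median of -0.10 in BLM against Con and 0.65 in KOBLM against BLM. Without BLM 3 these medians were 0.08 and 0.21. Atp6v0d2 was then still called in both, Atp6v1b2 was not, and Atp6v0c was called higher in BLM than in Con (1.115 ± 0.465). The 23 other lysosomal membrane proteins had medians of 0.05 and 0.14, and of 0.31 and -0.13 without BLM 3. With all libraries, Cd63 was the 1 gene of that list called, higher in BLM than in Con (2.11 ± 0.75) and higher in KO than in Con (1.78 ± 0.74), in both cases also without BLM 3. It was at 119, 124 and 234 in Con, 774, 1046 and 237 in BLM, 267, 1142 and 228 in KO and 356, 511 and 1255 in KOBLM, highest in the 4 libraries in which Ctsl was highest. Without BLM 3, Cd63 was also called lower in the interaction, and Glmp was called higher in KO than in Con.

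Of 19 genes that regulate lysosomal genes or sense nutrients at the lysosome, Lamtor2 was called lower in BLM than in Con (-1.94 ± 0.80), and Rragd was called higher in BLM and in KO than in Con and lower in the interaction. Rragd had no count in any Con library and reached 49.7 TMM CPM in BLM 3 and at most 15.8 elsewhere, so its fitted fold changes are not given. Without BLM 3, Lamtor2 was still called and Rragd was not called in BLM against Con. In that setting Rragc and Rragd were called higher in KO than in Con. The median of this list was -0.21 in BLM against Con and 0.21 in KOBLM against BLM, and 0.12 and -0.01 without BLM 3. The transcription factors of the E-box passed no test in any of the 5 comparisons, but without BLM 3 Mitf was called higher in KOBLM than in BLM (1.45 ± 0.60). Tfeb was at 18.8, 26.1 and 33.1 TMM CPM in Con and 9.5, 21.3 and 19.8 in BLM (log2 fold change -0.63 ± 1.29), and Tfe3 at 32.1, 27.8 and 32.7 in Con and 43.1, 46.2 and 41.1 in BLM (0.49 ± 1.26). Mitf was at 89.0, 87.6 and 88.7 in Con and 69.2, 41.7 and 0 in BLM (-1.26 ± 1.28). Tfec, looked at beside them, was at 167, 77.2 and 165 in Con and 53.3, 49.1 and 0 in BLM (-2.00 ± 1.33, unadjusted p = 0.155, edgeR). All 3 BLM libraries were thus above Con for Tfe3, as in 5.81% of all genes. They were below Con for Mitf and Tfec, as in 10.2%. The differences of Tfe3 and Mitf were within their standard errors. In KOBLM, library 2 stood out for Tfeb (98.5), Mitf (290) and Tfe3 (0.9), against 22.7 to 30.1, 78.2 to 84.2 and 59.0 to 60.9 in the other 2 libraries.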

How the data were processed

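RNA from 12 sorted cell samples, 1 mouse and 1 library each, was sequenced with a QuantSeq 3′ mRNA kit. The authors deposited raw counts of reads per gene symbol for each library, without normalization. Per the labels, the submitters' processing notes name mm10, Bowtie2 and edgeR. The counting program is not given in the sources used here. Entries sharing 1 of 35 symbols were summed, which left 23238 symbols.

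Genes were filtered by group (minimum count 10, minimum total 15), scaled by TMM and fitted with the quasi-likelihood model of edgeR 4.0.16 (R 4.3.3) over all 12 libraries and 4 groups. Tests were two-sided, and the p-values measure the spread between mice. Standard errors were derived from the log2 fold change and its F statistic. Values were adjusted by Benjamini-Hochberg over the 13054 genes tested. DESeq2 1.42.0, other scalings, no filter, a replicate block, fits of the compared groups alone and leaving out each library were tried as alternatives. The code was tested on simulated data. Marker and member sums, single marker genes and Ep300 use CPM of the whole library. Single members and the other lysosomal genes use TMM CPM. Promoter windows came from RefSeq (GRCm38.p6).

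The members, the other gene lists and the tests were chosen with earlier results of these data known. Values by library are given for members called in any comparison, the 5 most abundant members, Laptm5, Ctsh and Lipa. Lgmn, Gaa, Tfec and the 3 E-box factors were added after their values were seen. In the other lists at most 4 called genes are named. Other marker lists are given by their called genes. The settings without BLM 3 for overlap and for the other lists were chosen after seeing the data.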

Additional observations from a re-analysis of the deposited data

Results flagged for a closer look

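The effect of bleomycin differed between the labelled genotypes, by the interaction test of edgeR, for 3 members. The difference was -2.82 on the log2 scale for Ctsl, 1.58 for Hexa and 1.98 for Cd164, and the adjusted p was 1 for each in edgeR. Among 18 alternatives the call was kept in 11 for Ctsl, 3 for Hexa and 12 for Cd164. Without KO 2 the difference for Ctsl was -1.55 (unadjusted p = 0.163 by edgeR).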

How the results depend on the processing

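Over BLM against Con, KOBLM against BLM, KO against Con, KOBLM against KO and the interaction, 9, 7, 1, 0 and 3 members were called. An adjusted p in place of the unadjusted one left 0 in all 5, which is the stricter threshold. Fits of the compared groups alone gave 4, 3, 3 and 1 (the interaction needs all groups), and the cause was not tested. Leaving out 1 library at a time, the counts ran from 2 to 10, 3 to 9, 0 to 2, 0 to 1 and 0 to 5, in the same order. The lowest counts came without Con 3 (BLM against Con), KOBLM 2 (KOBLM against BLM), KO 2 or any Con library (KO against Con) and BLM 1, KO 2 or KOBLM 2 (interaction). Without BLM 3, chosen as a setting for overlap after seeing the data, 7 members lay above Con in BLM and 2 below BLM in KOBLM, against 0 with it. The summed CPM in KO was 28333 without Rn45s, the ribosomal RNA precursor, against 24675 with it. Leaving out 1 library at a time, the median log2 fold change of the members minus that of all genes ran from -1.127 to -0.483, 0.518 to 1.228, 0.069 to 0.371, -0.412 to 0.218 and 0.452 to 1.02 in the same order, so that its sign changed in KOBLM against KO. Of the values of single called members, 0 of 377 reversed in sign, while 96 lost their call. Many of these values could hardly reverse, so the 0 says little. The adjusted p setting reuses the main fold change, and leaving out a library of a group outside the comparison barely alters it.

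With a replicate block the counts were 7, 5, 0, 0 and 1. Same-numbered libraries did not deviate together: the correlation of their deviations from the group means was -0.117 to 0.096 over 18 pairs, so the numbers were not taken to pair the samples.

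The 10 members without a count in BLM 3 were read in the library with the most counts but the fewest genes with a count (6847). Low values there were not confined to the members. The median of log2(TMM CPM + 1) minus the gene's mean was -3.13 over the members and -1.30 over all tested genes. The biological coefficient of variation was 1.444.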
